A study of Homo sapiens with 4 samples.

Results

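The HIST1 cluster on chromosome 6 holds most of the human replication-dependent histone genes, and the peaks of CDK8 within it are described here. CDK8 was mapped by chromatin immunoprecipitation followed by sequencing (ChIP-seq) in HCT116, an established human colorectal cancer cell line. There was 1 CDK8 library from cells kept for 24 h under normoxia, and there were 2 from cells kept for 24 h at 1% oxygen (hypoxia replicates 1 and 2). All 3 were precipitated with an antibody against CDK8 of the same vendor and lot. An input library of the same cells was not analysed here. Nothing in the labels tells if separate cultures gave the 2 hypoxia libraries, so their spread may be technical.

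The members were chosen by position alone, in the genome build GRCh37/hg19: every listed peak in 3 blocks of chromosome 6, from 26.01 to 26.29 Mb (first block), 27.09 to 27.13 Mb (middle block) and 27.77 to 27.87 Mb (last block). The intervals between them, from 26.29 to 27.09 Mb and from 27.13 to 27.77 Mb, served for comparison. The blocks held 39 of the 19862 peaks listed in normoxia, 40 of 21993 in hypoxia replicate 1 and 43 of 14256 in hypoxia replicate 2. Peaks that touched or overlapped, within or across libraries, were merged to a region, which gave 41 regions in the blocks and 31 in the intervals, of 28150 in the genome. Peaks within the lists run on without a break in their numbering from the first to the last block. All peak positions below are on GRCh37/hg19, counted from 1.

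The kinase CDK8 belongs to Mediator, the large complex that connects transcription factors to RNA polymerase II. It sits in a kinase module together with cyclin C, MED12 and MED13. Replication-dependent histone genes supply the histones that package newly copied DNA, and they are transcribed mainly in S phase. They lack introns, and their messages end in a stem-loop in place of a poly(A) tail. The core histones H2A, H2B, H3 and H4 form the nucleosome, and the linker histone H1 binds the DNA where it enters and leaves. HIST1 genes gather in a nuclear structure, the histone locus body, which holds their activator NPAT.

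By name and order in RefSeq's gene table for the assembly GRCh38.p14, the cluster holds 3 runs of histone genes. The first run goes from H1-1 to H4C8 and has 32 histone genes, of which 5 encode H1, 4 H2A, 8 H2B, 7 H3 and 8 H4. Its only other protein-coding gene is HFE, a regulator of iron uptake. The middle run goes from H2BC11 to H2AC12 and has 5 histone genes, and the last goes from H2BC13 to H2BC17 and has 16. Between the first and the middle run lie 47 tRNA genes, which RNA polymerase III transcribes. The same stretch has 9 protein-coding genes, 6 of them butyrophilins (membrane proteins that act on T cells), and also HMGN4, ABT1 and ZNF322. Between the middle and the last run lie 51 tRNA genes and 5 protein-coding genes, among them PRSS16, POM121L2, ZNF391 and ZNF184. That table is on another build than the peaks, and no annotation of GRCh37/hg19 was used. A region is therefore given by its position and is not assigned to a single gene.

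The promoters of these genes share short motifs that are known from histone gene control, and a few are shown for the reader to see the kind of sequence that the blocks hold. They come from RefSeq's promoter windows on GRCh38.p14 and were not placed on the build of the peaks. Of the 53 histone genes, 48 had a promoter in that table; H2AC12, H3C11, H3C12, H4C1 and H4C3 had none. The motifs searched on both strands, in the 250 bases before the start, were the octamer ATTTGCAT, which OCT1 binds in H2B promoters, the CCAAT box (CCAAT) and the TATA box (TATAAA). Each stretch below is the 120 bases before a start, for the first gene of its class along the cluster with a chosen motif there. That motif was the octamer for H2B, the CCAAT box for H2A and H1, and the TATA box for H3 and H4. The stretches run 5′ to 3′ on the gene's own strand, and capitals mark every match to any of the 3 motifs on either strand.
H2BC3 (H2B, minus strand): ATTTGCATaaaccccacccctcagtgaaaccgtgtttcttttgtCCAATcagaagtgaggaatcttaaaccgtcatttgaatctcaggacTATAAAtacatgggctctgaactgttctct
H2AC4 (H2A, minus strand): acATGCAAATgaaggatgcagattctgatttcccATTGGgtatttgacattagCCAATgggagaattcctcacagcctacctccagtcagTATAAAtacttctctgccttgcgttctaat
H1-1 (H1, minus strand): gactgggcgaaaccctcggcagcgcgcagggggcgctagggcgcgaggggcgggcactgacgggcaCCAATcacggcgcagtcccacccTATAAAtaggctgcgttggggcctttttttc
H3C1 (H3, plus strand): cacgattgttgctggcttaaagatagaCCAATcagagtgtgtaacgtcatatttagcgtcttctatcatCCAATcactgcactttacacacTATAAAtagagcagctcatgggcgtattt
H4C2 (H4, minus strand): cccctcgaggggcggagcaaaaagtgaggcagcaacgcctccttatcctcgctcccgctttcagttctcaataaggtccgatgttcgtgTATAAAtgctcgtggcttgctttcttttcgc

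The octamer was in 20 of the 48 HIST1 promoters (41.7%), against 1.63% of all 35093 promoters in the table. It was in 11 of 14 H2B and 8 of 10 H2A promoters, in 1 of 8 H3 promoters, and in none of the 6 H1 and 10 H4 promoters. The CCAAT box was in 41 of 48 (85.4%, against 32.0% of all promoters): in every H1, H2A, H2B and H3 promoter of the table, and in 3 of 10 H4 promoters. The TATA box was in 31 of 48 (64.6%, against 10.7%), with matches in each of the 5 classes. Of 11 pairs of neighbouring H2A and H2B genes, 8 point away from each other and share their promoter window, with 193 to 247 bases between their starts. The octamer stood between the starts in 6 of these 8 pairs. Because both strands were searched, a match between such starts was counted for the H2A gene and for the H2B gene. The promoter counts and shares above are thus not counts of separate sites. The first such pair is H2BC4 and H2AC6, and the 245 bases between their starts, on the plus strand, hold matches to all 3 motifs. The only TATA match there lies near the start of H2AC6, and it was counted for H2BC4 as well.
H2BC4 to H2AC6: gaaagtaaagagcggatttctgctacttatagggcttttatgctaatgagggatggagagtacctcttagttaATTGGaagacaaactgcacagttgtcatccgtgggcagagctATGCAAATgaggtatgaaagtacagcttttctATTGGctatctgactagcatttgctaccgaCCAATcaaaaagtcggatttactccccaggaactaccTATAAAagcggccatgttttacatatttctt

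CDK8 peaks were denser in the HIST1 blocks than in the intervals between them, in all 3 libraries. The blocks span 420 kb and the intervals 1.44 Mb. Normoxia had 9.29 peaks per 100 kb in the blocks and 0.764 in the intervals. Hypoxia replicate 1 had 9.52 and 1.88, and hypoxia replicate 2 had 10.2 and 0.347. The block densities of the 3 libraries lay close together, although the lists differed in length, and the interval densities did not. In these densities each piece of a region that a list splits into several peaks counts as a peak. Blocks were thus denser by 12.2 times in normoxia, 5.08 times in hypoxia replicate 1 and 29.5 times in hypoxia replicate 2. The blocks and intervals also differ in gene content. By the gene table on GRCh38.p14 the runs hold 53 histone genes. The stretches between them hold 9 and 5 protein-coding genes, with 47 and 51 tRNA genes. The part of gene density in these ratios was not tested. No read counts come with the peaks, so the depth behind them is unknown.

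**Figure D1:**
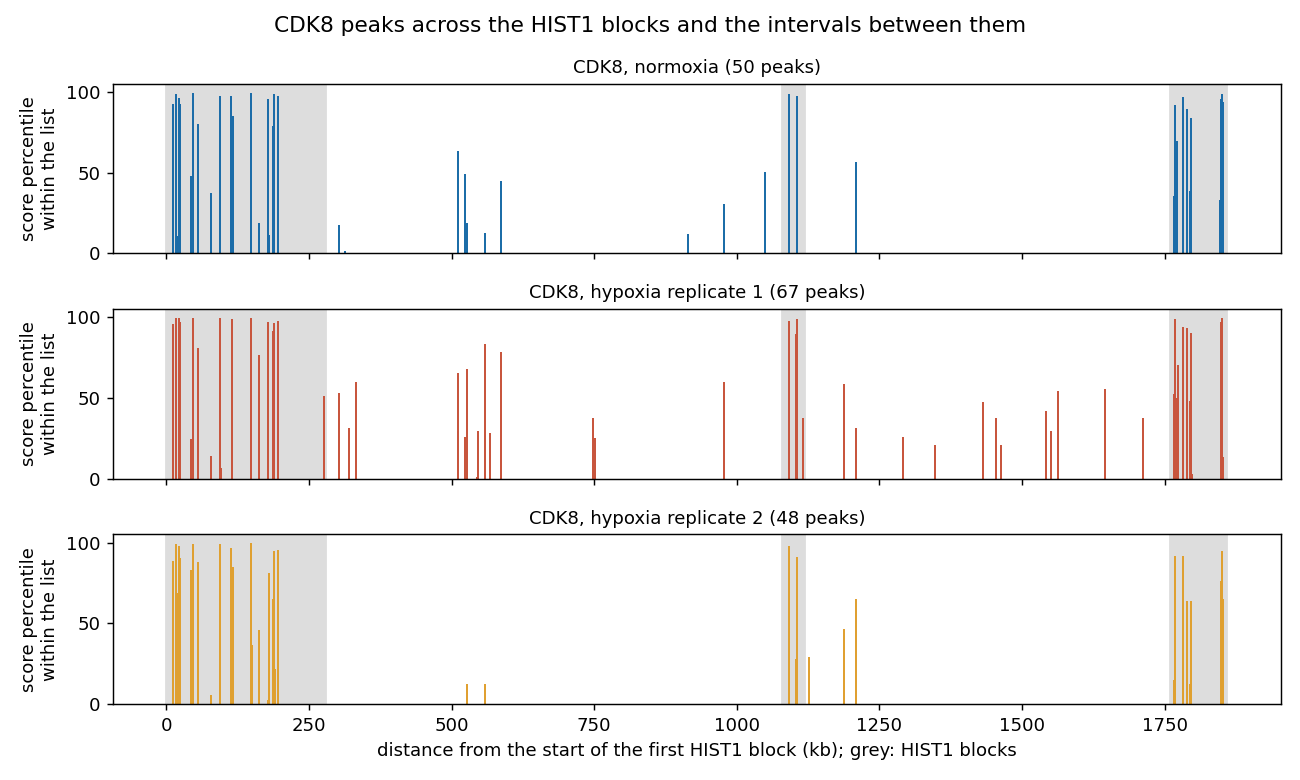
CDK8 peaks of the 3 libraries from the first to the last HIST1 block. Each line is a peak, placed by its distance in kb from the start of the first block, and its height is its score percentile within its own list; grey marks the blocks. High lines stand in the grey blocks in each library, and the 27 lines of hypoxia replicate 1 in the intervals reach percentile 83.1 at most.

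In windows of 10 kb, 21 of the 42 block windows (50.0%, Wilson 95% interval 35.5 to 64.5) held a normoxia peak, against 5.22% of all 298478 windows of the genome. Hypoxia replicate 1 had a peak in 23 block windows (54.8%, 39.9 to 68.8), against 5.53% of all windows. Hypoxia replicate 2 had a peak in 19 (45.2%, 31.2 to 60.1), against 3.94%. The block shares lay far above the genome's in each library, and their intervals, which cover counting error only, overlapped among the libraries. Of the 144 interval windows, 10 held a peak in normoxia (6.94%, 3.82 to 12.3) and 5 in hypoxia replicate 2 (3.47%, 1.49 to 7.87), and both of these intervals include the genome's share. Hypoxia replicate 1 had 24 (16.7%, 11.5 to 23.6), which lies above its genome share of 5.53%. The same 19 block windows held a peak in all 3 libraries, and another 19 held none in any.

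**Figure D2:**
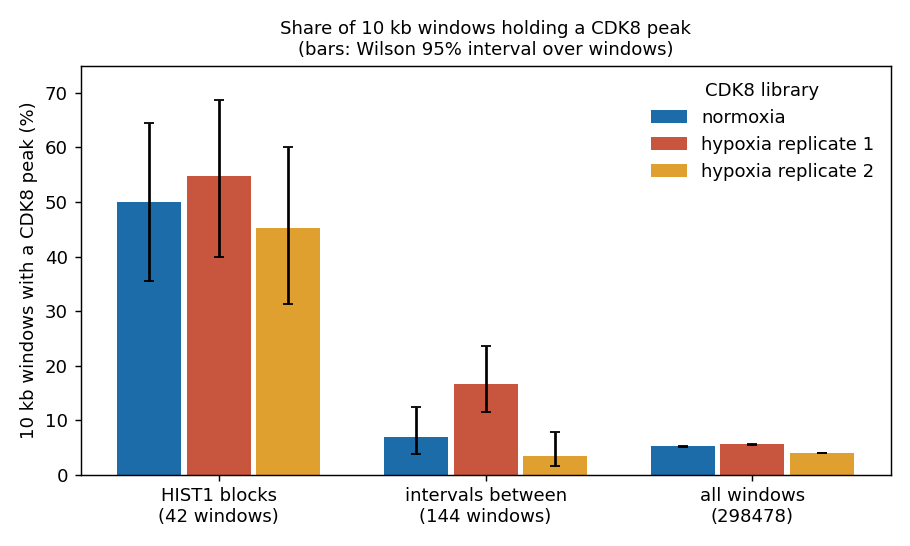
Percent of 10 kb windows that hold a CDK8 peak, for the HIST1 blocks, the intervals between them and all windows of the genome, by library. Error bars are Wilson 95% intervals over windows; the block bars stand at 45.2% to 54.8% and the genome's at 3.94% to 5.53%.

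Block peaks were also broad. At least 1000 bp lay under peaks in 16 block windows in normoxia (38.1%, against 0.606% of all windows), in 16 in hypoxia replicate 1 (38.1%, against 0.438%) and in 13 in hypoxia replicate 2 (31.0%, against 0.297%). None of the 144 interval windows reached this in any library, which allows a share of up to 2.08%. Normoxia peaks covered 9.28% of the block length and 0.238% of the interval length. The values were 8.81% and 0.481% for hypoxia replicate 1, and 7.39% and 0.107% for hypoxia replicate 2. The fullest normoxia windows were those from 26020001 to 26030000, with 4 peaks over 3559 bp, and from 26120001 to 26130000, with 3 peaks over 3517 bp, both above percentile 99.9 of all windows by covered length.

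Of the 41 joined block regions, 18 were at least 1000 bp wide, against 4.9% of all regions. The median width was 744 bp in the blocks, 264 bp in the intervals and 368 bp over the genome. The widest block region had 3769 bp, and the widest interval region had 457 bp. Joining peaks of several lists widens a region. Within single lists the median block peak was 816 bp wide in normoxia. In hypoxia it was 777 bp wide (replicate 1) and 527 bp wide (replicate 2), against 379, 295 and 352 bp over each whole list. The block peaks were thus the broader ones in every library, and least so in hypoxia replicate 2. Neighbouring regions lay 3381 bp apart in the blocks by the median, against 18702 bp over the genome.

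**Figure D3:**
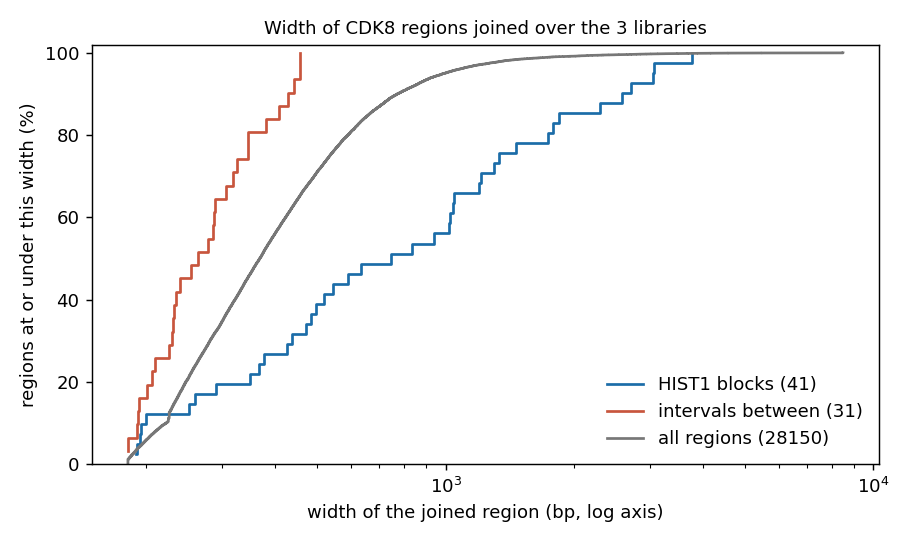
Cumulative share of joined CDK8 regions by width in bp (log axis), for the 41 regions of the HIST1 blocks, the 31 of the intervals and all 28150. The block curve lies to the right over most of its range, with a median of 744 bp, and no interval region exceeds 457 bp.

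The lists give each peak the authors' own score, whose scale is not stated. Here it served only to rank the peaks of a library among themselves, from percentile 0 to 100 for the top peak. The median block peak stood at percentile 89.4 in normoxia. In hypoxia it stood at 90.7 (replicate 1) and 72.2 (replicate 2), where 50 is the middle of each list. At or over percentile 90 were 19 of 39 block peaks in normoxia, 21 of 40 in hypoxia replicate 1 and 14 of 43 in hypoxia replicate 2. The intervals held no such peak in any library. High rank was not the rule for every block peak: 11, 10 and 14 of them stood below percentile 50, in the same order of libraries.

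Most block regions were found in every library. Of the 41, 28 (68.3%, 53.0 to 80.4) were listed in all 3, against 33.0% of all regions. A further 5 were in a pair of lists and 8 in a single list, and the shares of each pattern over all regions are given with these regions below. Of these 28 regions, 17 were at least 1000 bp wide, against 12.6% of all regions in 3 lists. A region's percentile in a list is that of its best-scoring peak there, also where the list splits the region into several peaks. By this rule, 13 of the 28 ranked at or over percentile 90 in each of the 3 lists at once, against 8.32% of all regions in 3 lists. Peak by peak, 32 of 39 normoxia block peaks overlapped a peak in both other lists (82.1%, against 47.7% of all normoxia peaks). For hypoxia replicate 1 the count was 31 of 40 (77.5%, against 44.3%), and for hypoxia replicate 2 it was 39 of 43 (90.7%, against 67.9%). These overlaps required at least 1 bp. With an overlap of 50% of both peaks the block shares fell to 61.5%, 52.5% and 51.2%. The shares of all peaks under that rule were not computed, and those given above hold for 1 bp only.

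The 28 regions follow in order along the chromosome, with their percentiles in the order normoxia, hypoxia replicate 1 and hypoxia replicate 2. The first block held 17 of them. It opened with a tight group of 7 regions within 14.1 kb, 5 of them in all 3 lists. The region from 26020554 to 26021597 (1044 bp) ranked at 92.6, 96.0 and 88.7. Beside it, from 26021695 to 26022438 (744 bp), the percentiles were 88.4, 93.8 and 86.2. Both are high in each library, with hypoxia replicate 1 highest and hypoxia replicate 2 lowest. The region from 26026484 to 26027817 (1334 bp) was among the top of every list, at 98.3, 99.4 and 99.2. From 26031474 to 26032673 (1200 bp) the values were 96.2, 99.3 and 97.7, and from 26032939 to 26033980 (1042 bp) they were 92.4, 96.8 and 90.2. All 5 ranked above percentile 86 in all 3 lists.

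Next came a pair of unlike neighbours. The small region from 26052938 to 26053422 (485 bp) ranked at 48.0, 24.8 and 83.0, so that the hypoxia libraries lay on opposite sides of normoxia. The region from 26055056 to 26056893 (1838 bp) ranked at 99.1, 99.4 and 99.4. The latter was a single peak in each list, and 1730 bp of it lay under a peak in all 3. A narrow region from 26066210 to 26066559 (350 bp) still ranked at 80.2, 80.6 and 88.3. The region from 26087521 to 26088019 (499 bp) ranked low, at 37.3, 14.1 and 5.63. The one from 26103957 to 26104978 (1022 bp) was again near the top, at 97.6, 99.4 and 99.0.

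The broadest region of the blocks ran from 26122912 to 26126680 (3769 bp), at percentiles 97.4, 98.8 and 96.5. It was listed as 3, 1 and 2 peaks in the same order of libraries, and 3248 bp lay under a peak in all 3 lists. The next broad region, from 26156377 to 26159449 (3073 bp), had the highest lowest percentile of the cluster, at 99.2, 99.3 and 99.5. It was a single peak in each list, with 2969 bp in common. A narrow region from 26172019 to 26172455 (437 bp) differed most between the conditions in the blocks, at 18.6 in normoxia against 76.8 and 46.0 in the hypoxia libraries. Those hypoxia values lay 30.8 percentile points apart, and normoxia minus their mean was -42.7 points.

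Of the remaining 4 regions of the first block, the last 3 stood in a group of 4 regions within 9.63 kb. From 26188232 to 26189529 (1298 bp) the percentiles were 95.5, 97.0 and 81.4. From 26197054 to 26197687 (634 bp) they were 79.1, 91.4 and 65.2, the lowest set of the 4. From 26198427 to 26200162 (1736 bp) they were 98.4, 96.1 and 94.5, and from 26204475 to 26206259 (1785 bp) they were 97.6, 97.4 and 95.6. In this last pair normoxia ranked above both hypoxia libraries, by no more than 3.06 points over their mean. After 26206259 no list held a peak for 79.2 kb, which is 28.3% of the first block. Only hypoxia replicate 1 had peaks beyond it, a pair of 190 and 189 bp near the block's end, at percentiles 5.87 and 51.0.

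**Figure D4:**
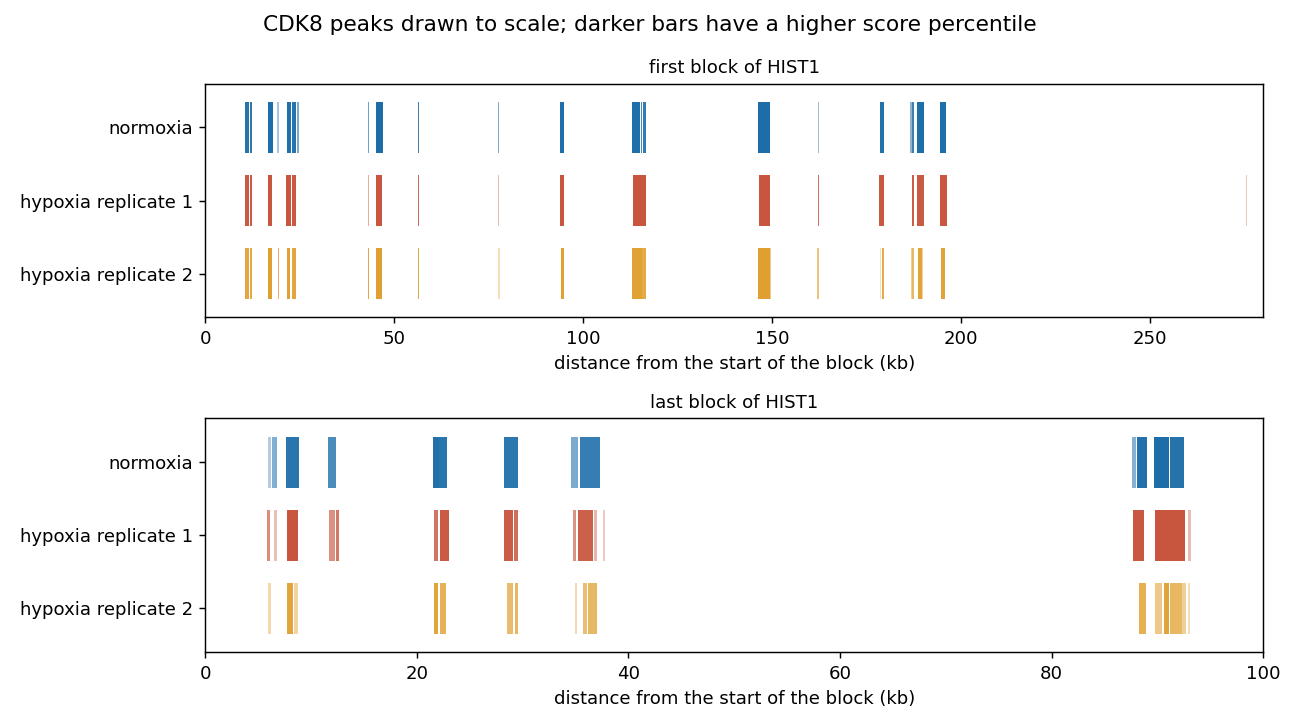
CDK8 peaks of the first and last HIST1 blocks drawn to scale, by library, with distance from the start of the block in kb; darker bars have a higher score percentile. The same groups of peaks recur in the 3 libraries, and each block has a long stretch without peaks, of 79.2 kb and 49.8 kb.

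The middle block, with 5 histone genes in its run, held 2 regions in all 3 lists, both broad. From 27099681 to 27101973 (2293 bp) the percentiles were 98.9, 97.8 and 97.8. From 27113521 to 27116109 (2589 bp) they were 97.1, 99.0 and 91.0. Normoxia listed each as a single peak, and hypoxia replicate 2 listed each as 2. Another region (27125841 to 27126034, 194 bp) was in hypoxia replicate 1 alone, at percentile 37.9.

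The last block held 9 regions in all 3 lists and had the highest density of peaks, with 14, 16 and 16 per 100 kb. A narrow region came first, from 27775837 to 27776213 (377 bp), at 5.65, 52.6 and 14.9. The region from 27777656 to 27778862 (1207 bp) ranked at 91.7, 98.8 and 91.8. A pair side by side followed, at 96.5, 73.2 and 91.8 from 27791542 to 27792060 (519 bp) and at 91.4, 93.9 and 72.2 from 27792118 to 27793055 (938 bp). Hypoxia replicates 1 and 2 thus ranked the pair in opposite order. Another pair stood at 89.4, 93.1 and 56.6 from 27798241 to 27799077 (837 bp) and at 89.4, 78.4 and 64.1 from 27799130 to 27799556 (427 bp). In both of these, hypoxia replicate 2 was the lowest.

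A broad region from 27804565 to 27807272 (2708 bp) was split into 2, 3 and 3 peaks, and ranked at 83.9, 90.1 and 64.0. After it, from 27807773, no list held a peak for 49.8 kb, which is 49.8% of the last block. The block ended with a group of broad regions. From 27857601 to 27859060 (1460 bp) the percentiles were 95.8, 97.3 and 76.3. From 27859645 to 27862695 (3051 bp) they were 98.7, 99.2 and 94.5, with 2, 1 and 4 peaks in the 3 lists. The 4 peaks of hypoxia replicate 2 there stood at 38.7, 94.5, 64.9 and 28.3, so the value given is that of the best. The 28 regions as a whole were thus mostly high in each list, with a few narrow exceptions.

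**Figure D5:**
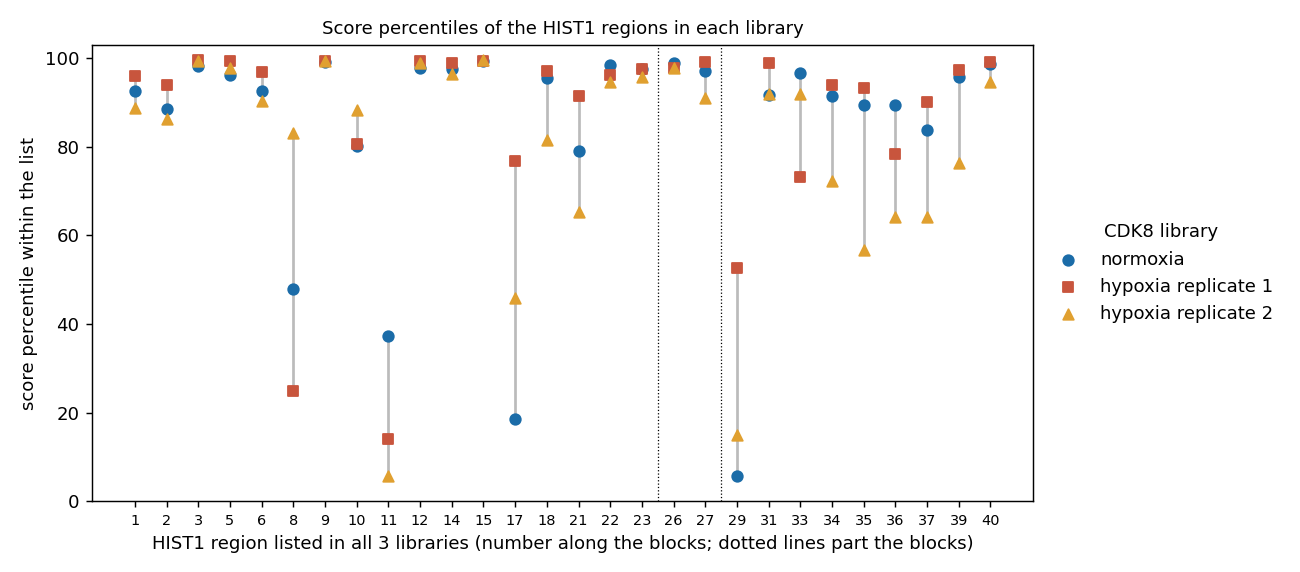
Score percentile of each of the 28 HIST1 regions listed in all 3 libraries, in order along the blocks; circles are normoxia, squares hypoxia replicate 1 and triangles hypoxia replicate 2, and dotted lines part the blocks. Most symbols stand above percentile 80, and hypoxia replicate 1 is above hypoxia replicate 2 in 22 regions. Normoxia lies between them in 13 of the 28 regions, against 3876 of the 9295 regions in 3 lists over the genome.

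The 13 other block regions were mostly narrow. A pair was in normoxia and hypoxia replicate 2 only: 26028940 to 26029529 (590 bp), at 10.8 and 69.0, and 26196634 to 26196999 (366 bp), at 28.1 and 29.4. Another pair was in normoxia and hypoxia replicate 1 only: 27776265 to 27776811 (547 bp), at 35.5 and 10.4, and 27781579 to 27782596 (1018 bp), at 69.2 and 70.1. This last was the only block region of at least 1000 bp that a list lacked. A single region was shared by the hypoxia libraries and missing in normoxia, from 27862882 to 27863141 (260 bp), at the low percentiles 13.7 and 6.33. Normoxia alone listed 2 regions, 26034202 to 26034673 at percentile 39.97 and 26189777 to 26190027 at 11.5. Hypoxia replicate 1 alone listed 5, all of 189 to 199 bp, at percentiles of 2.78 to 51.0. Hypoxia replicate 2 alone listed 1, from 26159506 to 26159796, at percentile 36.6.

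The series sets hypoxia against normoxia, and in the HIST1 blocks normoxia had slightly fewer peaks than either hypoxia library. Its count lay nearer to that of hypoxia replicate 1 than the hypoxia counts lay to each other. Block peaks numbered 39 in normoxia and 40 and 43 in hypoxia. These counts depend on how a region is split. The region from 27859645 to 27862695 was 2 peaks in normoxia and 1 and 4 in hypoxia, and that from 26122912 to 26126680 was 3, 1 and 2. By block windows of 10 kb with a peak the order differed, with 21 in normoxia and 23 and 19 in hypoxia. The covered share was highest in normoxia, by 0.468 points over hypoxia replicate 1 and 1.89 points over hypoxia replicate 2, and the hypoxia libraries differed by 1.43 points. Among the 28 regions, the normoxia percentile lay above both hypoxia values in 6, between them in 13 and below both in 9. Over all regions in 3 lists, 34.7% had normoxia above both and 23.6% had it below both. Hypoxia replicate 1 ranked above hypoxia replicate 2 in 22 of the 28, against 60.7% of all. The median gap between the hypoxia percentiles was 7.62 points in the 28 block regions and 17.6 over all regions in 3 lists, and high percentiles leave less room to differ. No test between the conditions was run: an exact permutation of 1 against 2 libraries could not give a p below 0.333.

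The block median percentiles put normoxia between the hypoxia libraries. Over the 28 regions they were 94.1 for normoxia, and 96.5 and 89.5 for hypoxia replicates 1 and 2, against 71.5, 71.1 and 61.5 over all regions in 3 lists. Within the cluster the last block differed most between the hypoxia libraries, with a median gap of 21.0 points in 9 regions. Hypoxia replicate 1 was the higher in 8 of those 9. The gap was 6.56 points in the 17 regions of the first block, and 17.6 points over all regions in 3 lists. The last block thus lay nearer to the genome's gap than the first block did.

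The CDK8 regions of the intervals were narrow, and most were in a single list. Of the 31 regions, 3 were in all 3 lists (9.68%, against 33.0% of all regions). Another 18 were in hypoxia replicate 1 alone (58.1%, against 22.6% of all regions). The best of the 3, by its lowest percentile, lay from 27219455 to 27219896 (442 bp), at 56.2, 31.5 and 65.3. The other two lay from 26537452 to 26537880 (429 bp), at 19.1, 68.1 and 12.3, and from 26568888 to 26569194 (307 bp), at 12.3, 83.1 and 12.3. None of the 3 ranked above percentile 66 in normoxia or in hypoxia replicate 2. With equal list sizes, or with the better-scoring 50% of each list, 0 interval regions were in all 3 lists, while 24 block regions were in each case.

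The second interval, from 27.13 to 27.77 Mb, differed between the libraries. Hypoxia replicate 1 listed 12 peaks there, hypoxia replicate 2 listed 3 and normoxia listed 1. Of its 13 regions, 10 were in hypoxia replicate 1 alone (76.9%, against 22.6% of all regions), at widths of 191 to 345 bp. The hypoxia libraries thus differed more from each other than hypoxia replicate 2 did from normoxia. With equal list sizes the intervals together held 6 normoxia peaks, 16 of hypoxia replicate 1 and 5 of hypoxia replicate 2. The shortest peak of the whole list was 181 bp in hypoxia replicate 1, against 226 and 225 bp in normoxia and hypoxia replicate 2. The part of peak calling or list length in this difference was not tested.

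Histone genes of a class resemble each other, and some reads may align to more than 1 of them. How such reads were treated is not given in the sources used here, and their part in the stretches without peaks was not tested. Just outside the cluster, the nearest peak before the first block lay 16.9 kb away in all 3 libraries. After the last block it lay 178 kb away in normoxia and hypoxia replicate 2, and 0.621 kb away in hypoxia replicate 1.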

How the data were processed

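CDK8 ChIP-seq peak lists of 3 libraries were analysed, 1 file each. The submitters' processing notes name MACS2 2.0.9, Bowtie 0.12.7, CASAVA 1.8.2 and FastQC and the build GRCh37/hg19, with neither roles nor parameters nor a threshold for peaks. The file names mark each list as merged without saying what was merged. The deposited score of each peak is the authors' own value on a scale that is not stated, and it was used only for percentiles within a list. Peaks were counted in a block or interval at 1 bp of overlap. Windows of 10 kb covered each chromosome between its outermost peaks. Intervals on shares are Wilson 95% intervals and take in only counting error; a count of 0 was given a limit of 3 counts. Regions named are all those in 3 lists in the blocks, all others by position, and the 3 best of the intervals. The members, lists and comparisons were chosen with earlier results of these data known. Joining, overlap, coverage and windows were tested on simulated lists. Python 3.11.15, numpy 2.4.6, pandas 2.3.3, scipy 1.17.1 and matplotlib 3.10.9 were used. Gene order and promoters come from RefSeq tables on GRCh38.p14; the promoter table can list several starts of a gene, and of each histone gene the first entry was used.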

Additional observations from a re-analysis of the deposited data

How the results depend on the processing

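Blocks exceeded intervals in all 21 comparisons of covered length or window share under an alternative, by 2.77 to 265 times. These comparisons recount the same 3 lists and are not separate evidence. The ratio of 265 is from hypoxia replicate 2 with the better-scoring 50% of each list, where the intervals held only 1 peak. A value was taken as stable within 1.5 times for a count, within its Wilson interval for a share of windows or peaks, and within 1 SD of the hypoxia libraries for covered length or a median percentile. Of 95 alternative values over 26 results, 62 were stable and the others follow, in the order normoxia, hypoxia replicate 1, hypoxia replicate 2. Keeping the top 50% of a list by score, interval regions fell to 12 (0 in all lists) and interval peaks to 3 in normoxia and a mean of 5.5 in hypoxia. Block length under peaks was then 8.23% in normoxia and 6.17% in hypoxia replicate 2, interval length 0.192% in hypoxia replicate 1 (and 0.0664% and 0.0233% in normoxia and hypoxia replicate 2, within 1 SD but down by over 1.5 times), and interval windows 2.08%, 6.94% and 0.694%. With equal list sizes there were 20 interval regions (0 in all lists), 6 interval peaks in normoxia, a mean of 10.5 in hypoxia, and 10.4% of interval windows in hypoxia replicate 1; interval length was 0.152% in normoxia and 0.286% in hypoxia replicate 1, again within 1 SD but down by over 1.5 times. With block edges moved out by 10 kb, block length under peaks was 8.12% in normoxia and 7.76% in hypoxia replicate 1. With 5 kb windows the block shares were 34.5%, 36.9% and 31.0%, and the interval share of hypoxia replicate 1 was 9.03%. With 20 kb windows they were 70.8%, 79.2% and 70.8%, and the interval shares of normoxia and hypoxia replicate 1 were 12.9% and 28.6%. Requiring 50% of both peaks gave overlaps of 61.5%, 52.5% and 51.2%. Leaving out a hypoxia library gave 13 to 30 interval regions, 3 to 8 of them in every list used, and 5 to 27 interval peaks in hypoxia. Fewer peaks, other windows and stricter rules move these values by themselves; for anything further the cause was not tested. No paired analysis was possible because normoxia has a single library.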
